A study of Mus musculus with 2 samples.

Results

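The integrated stress response was followed through 10 mouse genes that encode its transcription factors and effectors: Atf4, Atf5, Atf3, Ddit3, Cebpb, Cebpg, Trib3, Chac1, Ddit4 and Ppp1r15a. They were chosen by gene symbol, as all probe sets that the platform annotation gives to these symbols, out of 18194 genes that have at least 1 probe set naming no other gene. The 10 genes had 17 probe sets. RNA came from NIH3T3 cells, a long-established fibroblast line from mouse embryos, grown in serum-containing medium. One group, CCR4b RNAi, had been infected with a retrovirus that expresses a short hairpin RNA against CCR4b (CNOT6L), one of the deadenylases in CCR4-NOT, a complex that trims poly(A) tails. The other, Control RNAi, had received the control hairpin by the same kind of virus, so both groups carried a virus and a hairpin. Each group had 1 array, and neither the hairpins nor the time after infection is given in the labels.

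In the integrated stress response, kinases that sense amino acid shortage, unfolded protein in the endoplasmic reticulum, double-stranded RNA or haem deficiency phosphorylate the translation factor eIF2alpha. General translation then falls, while the mRNAs of Atf4, Atf5 and Ddit3 are translated better through the short open reading frames ahead of their coding sequence. ATF4 is a basic leucine zipper (bZIP) factor that binds DNA together with C/EBP partners and activates amino acid genes, CHOP (the product of Ddit3) and effectors such as TRIB3 and CHAC1. GADD34, the product of Ppp1r15a, brings a phosphatase to eIF2alpha and closes the loop. Arrays read mRNA, so translation of Atf4 was not measured here.

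The annotated promoters of 4 of these genes are shown because they hold a match to a motif of this pathway. Each window runs from 250 bases before to 50 bases after the gene's start, 5′ to 3′ on the gene's strand, from RefSeq on GRCm38.p6. Capitals mark the match. All 10 genes had an entry, Atf5 with a pair of windows.
Chac1 (chr2:119350992-119351291, plus strand): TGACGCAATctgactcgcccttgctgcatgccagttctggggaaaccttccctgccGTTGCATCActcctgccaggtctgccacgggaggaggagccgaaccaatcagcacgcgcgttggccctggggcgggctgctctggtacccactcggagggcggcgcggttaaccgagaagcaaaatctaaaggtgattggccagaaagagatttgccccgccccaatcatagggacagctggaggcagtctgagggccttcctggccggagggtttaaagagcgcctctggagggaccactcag
Trib3 (chr2:152344011-152344310, minus strand): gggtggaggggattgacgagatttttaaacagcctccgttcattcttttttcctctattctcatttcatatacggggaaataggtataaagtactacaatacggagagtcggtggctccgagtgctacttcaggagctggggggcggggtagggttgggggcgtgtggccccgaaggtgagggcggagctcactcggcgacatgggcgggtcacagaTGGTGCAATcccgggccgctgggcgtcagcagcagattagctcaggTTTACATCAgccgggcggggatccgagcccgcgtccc
Atf3 (chr1:191183284-191183583, minus strand): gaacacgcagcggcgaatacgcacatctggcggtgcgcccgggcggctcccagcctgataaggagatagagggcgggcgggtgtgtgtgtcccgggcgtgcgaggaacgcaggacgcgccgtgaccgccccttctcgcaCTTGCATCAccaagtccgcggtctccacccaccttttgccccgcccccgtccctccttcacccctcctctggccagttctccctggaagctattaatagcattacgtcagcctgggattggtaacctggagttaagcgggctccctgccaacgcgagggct
Ppp1r15a (chr7:45526219-45526518, minus strand): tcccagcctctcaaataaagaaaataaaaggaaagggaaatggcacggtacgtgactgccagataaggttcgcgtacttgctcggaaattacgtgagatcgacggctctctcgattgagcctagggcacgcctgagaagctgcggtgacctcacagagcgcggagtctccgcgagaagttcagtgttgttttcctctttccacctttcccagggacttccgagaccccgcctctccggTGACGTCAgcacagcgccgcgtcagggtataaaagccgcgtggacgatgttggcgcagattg

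The composite C/EBP-ATF element, the site type through which ATF4 acts on amino acid genes, was searched on both strands as TGATGNAAN. It lay in reverse orientation in the windows of Chac1, where the match began at position -194 from the start, Atf3 (position -111) and Trib3 (position 14, after the start). The same motif was present in 3.95% of all 32851 promoter windows. Another pattern, TGNNGCAAT, can overlap the first and was added after the windows had been read. It matched in forward orientation at the first base of the Chac1 window (position -250) and at position -33 of Trib3. The share of all windows with a match to it was 2.12%. The palindromic cyclic AMP response element TGACGTCA matched at position -12 of Ppp1r15a and in 1.79% of all windows. The ER stress element (CCAAT, then 9 bases of any kind, then CCACG) had no match in the windows of the 10 genes and was present in 0.119% of all windows. The windows of Atf4, Ddit3, Atf5, Cebpb, Cebpg and Ddit4 held none of these letter patterns. A match is a description of the sequence, and binding was not measured.

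Signals are given in the arbitrary linear units of the deposited table. The floor was 8.07 units, the 50th percentile of all values on both arrays, and a probe set was counted as measured where its brighter array reached it. Ratios are CCR4b RNAi over Control RNAi, and each gene is represented by the brightest of its measured probe sets (highest mean of the log2 signals). Because each group has a single array, no error between replicates and no test can be given, and every difference below is one between 2 arrays. Of the 17 probe sets, 15 were measured, all of them at or above the floor on both arrays, and 13 of these 15 read lower after CCR4b RNAi (11 with quantile normalization or loess).

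As a check of the labels, Cnot6l, the targeted gene, read 43.0 units in CCR4b RNAi cells and 102 units in Control RNAi cells on its brightest probe set (2.38-fold lower), and its other 3 probe sets were lower as well. Fibroblast markers were present, with 9 of 9 above the floor and a summed signal of 19338 units in CCR4b RNAi cells and 17174 units in Control RNAi cells; Col1a1 was 1.52-fold higher and Thy1 1.70-fold lower after CCR4b RNAi. Of 10 markers of epithelial, blood, endothelial and muscle cells, 8 were below the floor on both arrays, and the summed signal of the 10 was 68.7 units in CCR4b RNAi cells and 74.9 units in Control RNAi cells. The 2 measured ones moved apart. Cd68, a macrophage marker, read 9.42 units in CCR4b RNAi cells and 24.0 units in Control RNAi cells. Epcam, an epithelial marker, read 29.5 units in CCR4b RNAi cells and 19.4 units in Control RNAi cells. That Epcam probe set is of the _x_at type, which can hybridise to several transcripts. The other Epcam probe set was under the floor, at 0.921 units in CCR4b RNAi cells and 2.68 units in Control RNAi cells. The 3′ to 5′ signal ratio of Actb was 1.46 in CCR4b RNAi cells and 1.35 in Control RNAi cells, and that of Gapdh was 0.819 in CCR4b RNAi cells and 0.824 in Control RNAi cells. A lower bulk signal does not tell fewer expressing cells from less RNA per cell.

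Trib3, Chac1, Atf4, Ddit3 and Ppp1r15a were at least 1.5-fold lower after CCR4b RNAi, and the remaining measured genes, Atf5, Cebpb, Cebpg and Ddit4, were within 1.5-fold. Thus 5 of the 9 measured members were at least 1.5-fold lower (3 with quantile normalization or loess), where 14.7% of the 11991 measured genes were, and 0 were at least 1.5-fold higher, where 11.5% of all measured genes were. At 2-fold, 2 of the 9 were lower, against 4.51% of all measured genes. The median log2 ratio of the 9 was -0.65, and that of all measured genes was -0.07. The tenth member, Atf3, was below the floor on both arrays.

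**Figure D1:**
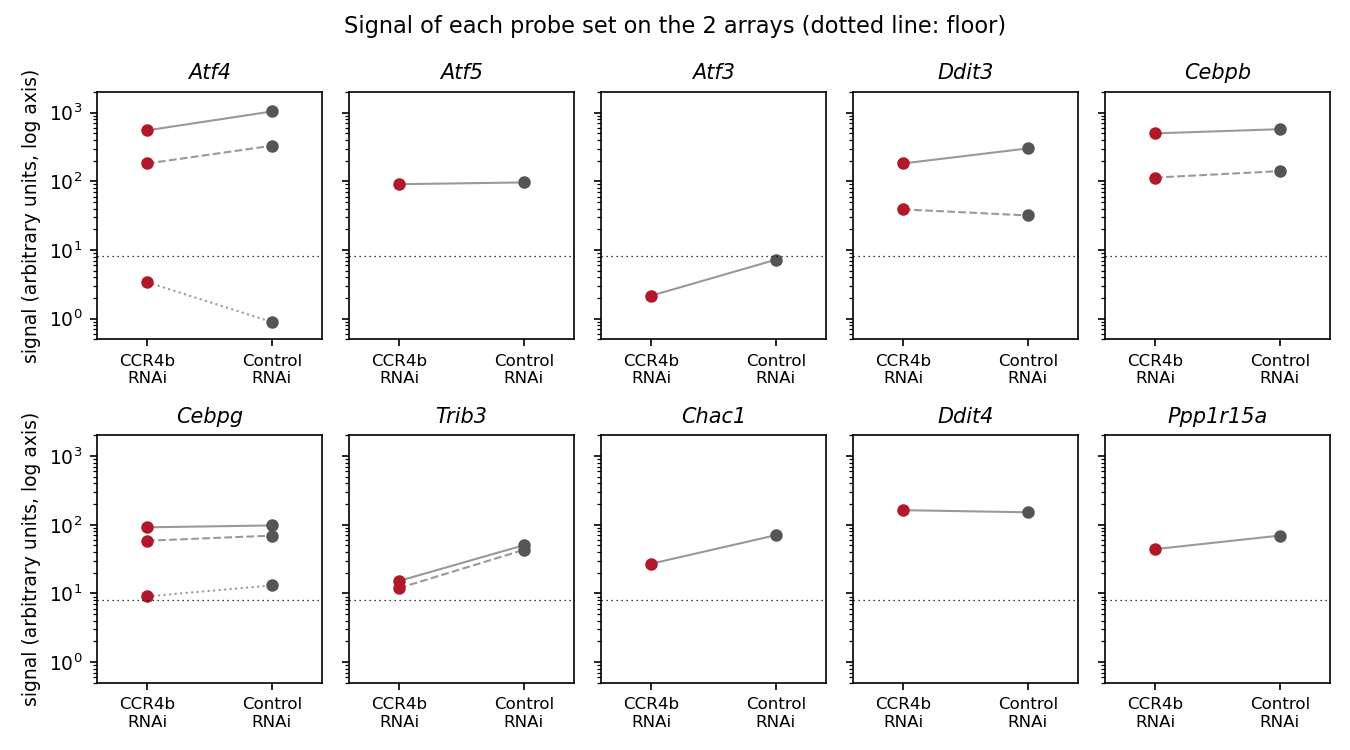
Signal of every probe set of the 10 genes on both arrays (log axis, arbitrary units), with CCR4b RNAi in red and Control RNAi in grey; each line joins the values of 1 probe set and the dotted line is the floor of 8.07 units. Both Trib3 probe sets, the Chac1 probe set and the brighter pair of Atf4 probe sets read lower in CCR4b RNAi cells, and the lines of Atf5 and Ddit4 are nearly level.

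Among the transcription factors, Atf4 itself was lower on both of its measured probe sets. The brightest read 552 units in CCR4b RNAi cells and 1041 units in Control RNAi cells, which is 1.88-fold lower (log2 ratio -0.91). The next read 182 units in CCR4b RNAi cells and 329 units in Control RNAi cells, 1.81-fold lower. Its identifier ends in _x_at, a type that can hybridise to several transcripts. The dimmest Atf4 probe set, at 3.40 units in CCR4b RNAi cells and 0.893 units in Control RNAi cells, stayed under the floor and gives no ratio. The brightest ratio lay at percentile 3.25 of the 1199 genes of similar signal, whose median was -0.17 with a robust SD (scaled median absolute deviation) of 0.36. That spread holds real differences between the cultures as well as measurement error.

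Ddit3 encodes CHOP, a C/EBP-family factor induced by ATF4 and known for its part in stress-induced cell death. Its brighter probe set read 182 units in CCR4b RNAi cells and 301 units in Control RNAi cells, 1.65-fold lower (log2 ratio -0.73, percentile 9.76 of genes of similar signal). The dimmer one went the other way, at 39.0 units in CCR4b RNAi cells and 31.8 units in Control RNAi cells (log2 ratio 0.29). As reported, Ddit3 was thus the 1 gene among the 5 with several measured probe sets whose probe sets differed in sign. Its log2 ratio was -0.22 when the median over probe sets was taken, -0.56 after quantile normalization and -0.55 after a loess correction, each short of 1.5-fold.

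Atf5, a close relative of ATF4 that is controlled by translation in the same manner, read 90.7 units in CCR4b RNAi cells and 96.3 units in Control RNAi cells (log2 ratio -0.09, turning to 0.04 with quantile normalization or loess). Its ratio sat at percentile 54.9 of genes of similar signal, close to their middle. Atf3, a stress-induced bZIP factor mostly known as a repressor, read 2.15 units in CCR4b RNAi cells and 7.21 units in Control RNAi cells on its 1 probe set. Both values were under the floor, so no fold is given.

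The C/EBP partners of ATF4 stayed close to the middle of genes of their signal. Cebpb encodes C/EBPbeta, a factor of stress, inflammation and fat cell formation, and its brighter probe set read 499 units in CCR4b RNAi cells and 575 units in Control RNAi cells (log2 ratio -0.20). Its other probe set read 113 units in CCR4b RNAi cells and 141 units in Control RNAi cells (log2 ratio -0.31). Both probe sets were below 0, within the class SD of 0.36.

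Cebpg encodes C/EBPgamma, which dimerises with ATF4 and takes part in antioxidant gene control. Its brightest probe set read 91.9 units in CCR4b RNAi cells and 97.9 units in Control RNAi cells (log2 ratio -0.09, and 0.03 with quantile normalization or loess). The next probe set, at 58.7 units in CCR4b RNAi cells and 69.6 units in Control RNAi cells, had a log2 ratio of -0.25. The dimmest, at 9.06 units in CCR4b RNAi cells and 13.1 units in Control RNAi cells, had -0.53 and was near the floor. As reported, the 3 probe sets thus shared a sign, with log2 ratios from -0.53 to -0.09. The robust SD between probe sets of a gene, taken over 4550 genes, was 0.30.

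Among the effectors, Trib3 had the lowest ratio of the 9 measured genes. It encodes a pseudokinase that binds ATF4 and CHOP and dampens their activity. One probe set read 15.2 units in CCR4b RNAi cells and 50.4 units in Control RNAi cells, 3.31-fold lower (log2 ratio -1.73, percentile 1.25). The other read 12.0 units in CCR4b RNAi cells and 43.1 units in Control RNAi cells, 3.60-fold lower (log2 ratio -1.85). Both Trib3 probe sets therefore gave more than a 3-fold difference, from signals in CCR4b RNAi cells less than 2-fold above the floor. The first probe set is of the _x_at type.

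Chac1 encodes an enzyme that breaks down glutathione and is a known target of the ATF4, ATF3 and CHOP cascade. Its 1 probe set read 27.1 units in CCR4b RNAi cells and 70.6 units in Control RNAi cells, 2.61-fold lower (log2 ratio -1.38, percentile 1.5 of genes of similar signal). Chac1 and Trib3, with Atf4, were the 3 members whose ratios lay under the 5th percentile of genes of similar signal.

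Ppp1r15a encodes GADD34. Its probe set read 44.3 units in CCR4b RNAi cells and 69.7 units in Control RNAi cells, 1.57-fold lower (log2 ratio -0.65, percentile 14.3). This ratio was close to the 1.5-fold limit and fell short of it after quantile normalization (-0.58) and loess (-0.57). Ddit4 encodes REDD1, an inhibitor of the growth kinase complex mTORC1 that responds to ATF4 and also to hypoxia and glucocorticoids. It read 163 units in CCR4b RNAi cells and 152 units in Control RNAi cells (log2 ratio 0.10), the only measured member above 0 on its brightest probe set.

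**Figure D2:**
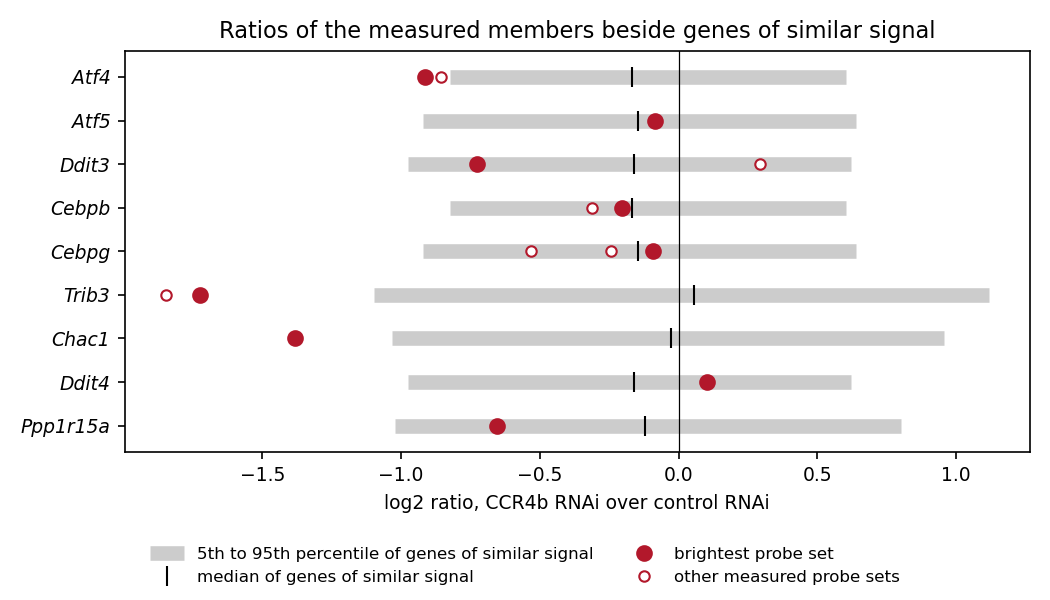
Log2 ratio (CCR4b RNAi over Control RNAi) of the 9 measured genes: filled points are the brightest probe sets, open points the other measured ones, grey bars the 5th to 95th percentile and ticks the median of genes of similar signal. Trib3, Chac1 and Atf4 lie left of their bars, Ddit3 and Ppp1r15a in the left part of theirs, and Atf5, Cebpb, Cebpg and Ddit4 near the ticks.

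Paralogues of the members, which share their protein families, were all within 1.5-fold on their brightest probe sets where measured (6 of 6). So were 8853 of all 11991 measured genes. The median log2 ratio of the paralogues was -0.07, which turned to 0.08 with quantile normalization. Trib2 read 187 units in CCR4b RNAi cells and 185 units in Control RNAi cells, and Trib1 read 30.5 units in CCR4b RNAi cells and 24.1 units in Control RNAi cells. Both lie far from the ratio of Trib3, the stress-induced member of this pseudokinase family. Chac2, the other glutathione-degrading cyclotransferase, read 53.3 units in CCR4b RNAi cells and 74.4 units in Control RNAi cells (log2 ratio -0.48). Ppp1r15b, the constitutive partner of the eIF2alpha phosphatase, read 148 units in CCR4b RNAi cells and 159 units in Control RNAi cells. Cebpd had a log2 ratio of -0.04 on its brightest probe set and -0.80 on a dimmer one, Jdp2 had -0.35, and Ddit4l and Cebpa were below the floor on both arrays.

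Upstream of ATF4, the eIF2alpha kinases showed no shared direction. Eif2ak4 encodes GCN2, the sensor of uncharged tRNA, and read 95.7 units in CCR4b RNAi cells and 62.8 units in Control RNAi cells (1.52-fold higher, and 1.37-fold higher on a dim probe set). Impact, which encodes an inhibitor of GCN2, read 412 units in CCR4b RNAi cells and 258 units in Control RNAi cells (1.60-fold higher, and 1.65-fold higher on its second probe set). These were the 2 genes at least 1.5-fold higher among 12 in the list of eIF2alpha kinases, their regulators and phosphatase subunits, where 11.5% of all measured genes were. The count was 0 with each array divided by its median, 3 with quantile normalization and 2 with loess. Eif2ak1, which encodes the haem-regulated kinase, was the 1 of the list at least 1.5-fold lower, where 14.7% of all measured genes were. It read 40.9 units in CCR4b RNAi cells and 74.1 units in Control RNAi cells. Its next probe set, however, read 55.3 units in CCR4b RNAi cells and 52.2 units in Control RNAi cells. Eif2ak3, which encodes PERK, the kinase of the endoplasmic reticulum, had a log2 ratio of -0.06. Eif2ak2, the double-stranded RNA kinase, had 0.55 on its brightest probe set and 0.07 and -0.18 on the others. On their brightest probe sets, Gcn1, a co-activator of GCN2, had -0.09, Dnajc3 -0.47 with 0.09 on the next probe set, and Nck1 0.38. Other measured probe sets of Gcn1, each with 1 array under the floor, gave bounds from -0.71 to 0.34. A dim Nck1 probe set of the same kind gave a bound of -0.47. The catalytic phosphatase subunits Ppp1ca, Ppp1cb and Ppp1cc had log2 ratios of -0.35, -0.14 and -0.21 on their brightest probe sets, with 0.50 on the dimmest of Ppp1cb. The list median was -0.10, beside -0.07 for all measured genes, and turned to 0.04 with quantile normalization.

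The 7 measured subunits of eIF2 and of eIF2B, its exchange factor, all had log2 ratios below 0 (from -0.91 to -0.33, median -0.42). They stayed below 0 under each scaling tried. Of the 8 listed subunits, Eif2s1, which encodes eIF2alpha itself, had no probe set naming it alone and so has no value here. Among all 11991 measured genes, 6704 were below 0. Of the 7 subunits, 2 (1 with quantile normalization or loess) were at least 1.5-fold lower, where 14.7% of all measured genes were. Eif2b5, the catalytic eIF2B subunit, read 86.1 units in CCR4b RNAi cells and 162 units in Control RNAi cells, and Eif2b3 read 85.2 units in CCR4b RNAi cells and 129 units in Control RNAi cells. A dim Eif2b5 probe set read 8.56 units in CCR4b RNAi cells and was under the floor in Control RNAi cells.

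Downstream of ATF4, 20 of 25 measured genes in the list of amino acid enzymes, transporters and other ATF4 targets had log2 ratios below 0 (18 with quantile normalization or loess). As reported, 6704 of all 11991 measured genes were below 0. Of the 25, 13 were lower by 1.5-fold or more (11 with quantile normalization or loess) and 3 were higher by as much. Of all measured genes, 14.7% were lower and 11.5% higher by as much. The list median was a log2 ratio of -0.63, and it fell short of 1.5-fold with quantile normalization (-0.51), loess (-0.50), either other floor (-0.42 and -0.44), the median over probe sets (-0.45) and without _x_at and _s_at probe sets (-0.44). Mthfd2, a mitochondrial folate enzyme, read 35.5 units in CCR4b RNAi cells and 146 units in Control RNAi cells (4.10-fold lower, and 3.33-fold lower on its second probe set). Slc7a5, a transporter of large neutral amino acids, read 14.7 units in CCR4b RNAi cells and 49.4 units in Control RNAi cells, and Psat1, an enzyme of serine synthesis, read 309 units in CCR4b RNAi cells and 935 units in Control RNAi cells. The genes at the other end were Slc1a5, a glutamine transporter (2.30-fold higher, but 1.12-fold on a dim probe set), Vegfa, which encodes the angiogenic growth factor (2.16-fold higher, 1.30-fold on the second), and Slc7a3, an arginine and lysine transporter that was under the floor in Control RNAi cells (at least 1.77-fold higher).

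All 13 measured genes in the list of cytosolic aminoacyl-tRNA synthetases and the tRNA exportin had log2 ratios below 0. Of them, 8 were at least 1.5-fold lower (median -0.65). The median fell short of 1.5-fold with quantile normalization (-0.53), loess (-0.52) and without _x_at and _s_at probe sets (-0.55). Among all 11991 measured genes, 6704 were below 0. With quantile normalization or loess, all 13 remained below 0 and 6 were at least 1.5-fold lower. Aars, which charges alanine tRNA, read 198 units in CCR4b RNAi cells and 454 units in Control RNAi cells (2.30-fold lower), and Lars, for leucine, was 2.13-fold lower. Mars1, for methionine, was 1.91-fold lower. The share of the list at least 1.5-fold lower was above the 14.7% of all measured genes, as was that of the amino acid list. Both lists were chosen with earlier results of these data known, so these shares are a description and not a test.

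The C/EBP-ATF element TGATGNAAN was also counted in the promoters of these 2 downstream lists. It was present in 8 of 23 amino acid and other target genes with an entry (34.8%) and in 5 of 9 synthetase genes (55.6%), against 4.50% of all 27025 genes. Among measured genes of the 2 lists with an entry, 5 of 11 with a match and 10 of 18 without one were at least 1.5-fold lower. The median log2 ratio was -0.54 for genes with a match and -0.64 for genes without. A further 9 measured genes of the lists had no promoter entry, and 6 of these were at least 1.5-fold lower (median -0.78). Listed genes with and without a match thus both held lower members, and the difference between these counts was not tested. Over all measured genes with an entry, 18.4% of the 256 with a match and 14.8% of the 9468 without one were at least 1.5-fold lower. At least 1.5-fold higher were 34 of the 256 and 1034 of the 9468. The median log2 ratio was -0.04 with a match and -0.08 without one, and these differences were not tested.

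**Figure D3:**
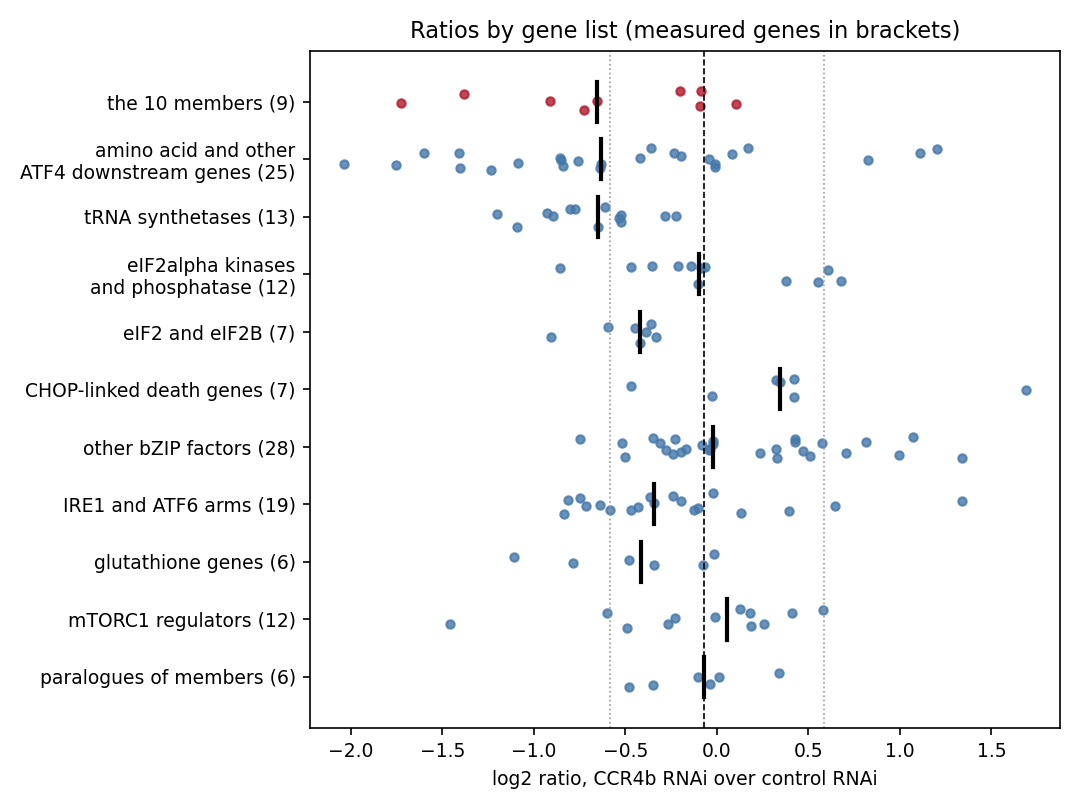
Log2 ratio (CCR4b RNAi over Control RNAi) of each measured gene by list; black bars are list medians, the dashed line is the median of all measured genes (-0.07) and dotted lines mark 1.5-fold in each direction. As reported, the medians of the 9 measured stress genes, the amino acid list and the synthetases lie left of the lower 1.5-fold line, and that of the CHOP-linked genes lies right of 0.

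Of 7 measured genes linked to CHOP in cell death, 0 were at least 1.5-fold lower and 1 was at least 1.5-fold higher (2 with quantile normalization or loess). Their median log2 ratio was 0.34. Of all measured genes, 14.7% were lower and 11.5% higher by as much. The 1 higher gene was Bcl2, an anti-apoptotic gene that CHOP is known to repress. Its ratio came from a probe set under the floor in Control RNAi cells that read 26.0 units in CCR4b RNAi cells, at least 3.22-fold higher. Another Bcl2 probe set went the other way, at 7.54 units in CCR4b RNAi cells and 10.8 units in Control RNAi cells. The remaining Bcl2 probe sets were below the floor on both arrays. Ero1a, named after its values were seen, encodes an oxidase of the endoplasmic reticulum that CHOP induces, and its probe sets differed. The one that represents the gene read 76.1 units in CCR4b RNAi cells and 77.4 units in Control RNAi cells. The others read 114 units in CCR4b RNAi cells and 48.8 units in Control RNAi cells (2.33-fold higher), and 82.0 units in CCR4b RNAi cells and 38.2 units in Control RNAi cells (2.15-fold higher).

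Other bZIP factors, some of which can pair with ATF4, ATF3 or CHOP, had a median log2 ratio of -0.02 (0.13 with quantile normalization). Of the 28 measured ones, 1 was lower by 1.5-fold or more (3 with each array divided by its median). Higher by as much were 5 (7 with quantile normalization or loess). Of all measured genes, 14.7% were lower and 11.5% higher by as much. Fosl1, an AP-1 subunit, was 1.68-fold lower (1.18-fold on its second probe set). Atf6, the endoplasmic reticulum stress sensor, was 2.53-fold higher on the brightest of its probe sets and had log2 ratios of -0.23 and -0.14 on the others, and Crem was 1.99-fold higher on the brightest and had -0.34 on the next. Atf7, related to ATF2, was 2.10-fold higher at 27.8 units in CCR4b RNAi cells and 13.2 units in Control RNAi cells. On brightest probe sets, Atf4 thus had a lower ratio than each of these 28 genes.

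In the IRE1 and ATF6 arms of the unfolded protein response, 5 of 19 measured genes were lower by 1.5-fold or more. Higher by as much were 2. Of all measured genes, 14.7% were lower and 11.5% higher by as much. The list median was a log2 ratio of -0.34, and it was -0.22 with quantile normalization, -0.19 with loess and -0.21 with the median over probe sets. Of the 19, 15 had log2 ratios below 0, and 12 did with quantile normalization or loess. As reported, 6704 of all 11991 measured genes were below 0. The chaperone and secretory genes Pdia4, Manf and Creld2 were 1.79-fold, 1.76-fold and 1.68-fold lower. Ern1, which encodes IRE1, was 1.56-fold higher on the brightest of its probe sets but at least 1.37-fold lower on a dim one that passed under the floor in CCR4b RNAi cells. Of 17 genes of this list with a promoter entry, 8 held the ER stress element, whereas 0 of the 10 stress genes did.

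Around the effectors, all 6 measured glutathione genes other than Chac1 had log2 ratios below 0 (median -0.41), and 5 of 6 with quantile normalization or loess. As reported, 6704 of all 11991 measured genes were below 0. Of the 6, 2 were at least 1.5-fold lower, where 14.7% of all measured genes were. Gclc, the catalytic subunit of the first enzyme of glutathione synthesis, was 2.15-fold lower (1.20-fold on its second probe set), and Gss, the next enzyme, was 1.72-fold lower (1.26-fold on its second). Gclm, the regulatory subunit of the first enzyme, was 1.27-fold lower, and Ggct, an enzyme of glutathione turnover, had a log2 ratio of -0.01. Among 12 measured genes of mTORC1, the complex on which REDD1 acts, and its regulators, 2 were lower by 1.5-fold or more. That share is close to the 14.7% of all measured genes that were lower. In the same list 0 were higher by as much, where 11.5% of all measured genes were. With quantile normalization or loess, 1 was lower and 1 higher. The list median was a log2 ratio of 0.06 and turned to -0.04 with each array divided by its median. Mlst8, an mTOR subunit, was 2.75-fold lower on the brighter of its probe sets but read 19.5 units in CCR4b RNAi cells and 19.0 units in Control RNAi cells on the other, and Tbc1d7, a TSC complex subunit, was 1.52-fold lower.

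**Figure D4:**
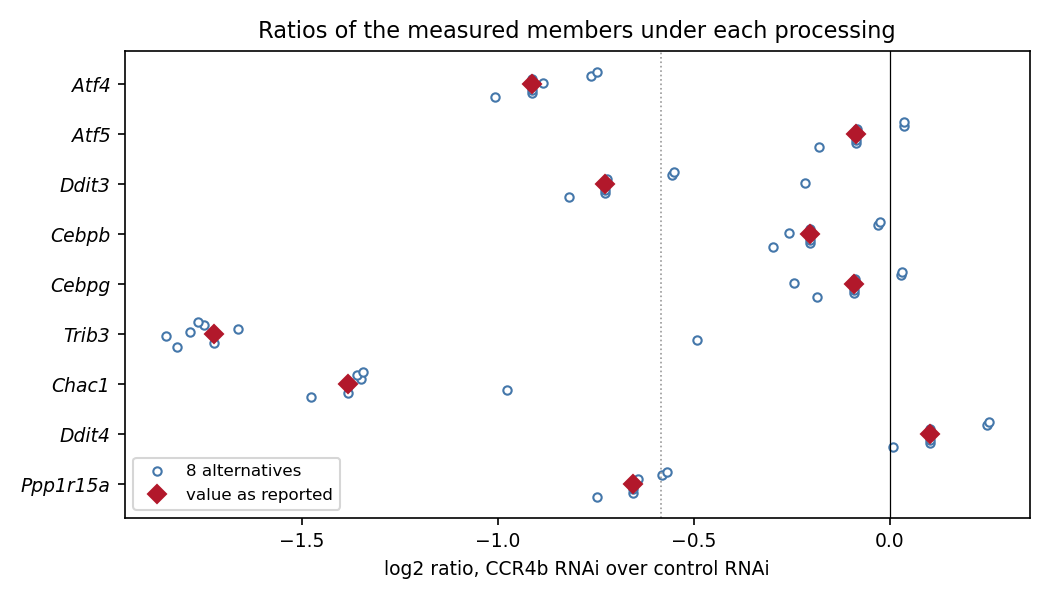
Log2 ratio (CCR4b RNAi over Control RNAi) of the 9 measured genes as reported (diamonds) and under each of 8 processing alternatives (open circles); the dotted line marks 1.5-fold lower. Atf4 stays left of that line throughout, Ddit3 and Ppp1r15a cross it, Atf5 and Cebpg cross 0, and the right-most circles of Trib3 and Chac1 are bounds from a higher floor.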

How the data were processed

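The authors deposited 1 linear intensity per probe set, made in GCOS with a global normalization on the Affymetrix Mouse Genome 430 2.0 array, per the series design text. Its version, its scaling target and any detection calls are not given here. The 2 arrays were grouped by their knockdown label. Of 45101 probe sets, 34958 have 1 symbol in the platform annotation and were used, 932 have several and 9211 are unnamed here.

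Values were raised to the floor and turned into log2 ratios. A ratio with 1 array under the floor is a bound. Genes of similar signal are 10 equal classes of measured genes. Members and 12 other lists (184 entries in all, 177 with a probe set) were chosen with earlier results of these data known. Named from each list were up to 3 genes per direction past 1.5-fold, and all genes of the kinase and paralogue lists. Ero1a, Gclm and Ggct were named outside this rule. Alternatives were median scaling, quantile normalization, floors at the 25th and 75th percentile, loess (span 0.3), log2 of signal plus 1, the median over probe sets, and no _x_at or _s_at probe sets. The number of arrays limits the precision. Python 3.11.15, pandas 2.3.3 and statsmodels 0.14.6 were used.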

Additional observations from a re-analysis of the deposited data

How the results depend on the processing

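Among the members, 5 were at least 1.5-fold lower as reported, 3 with quantile normalization or loess, and between 4 and 6 under the other 6 alternatives. Their median log2 ratio was -0.26 with the median over probe sets and between -0.75 and -0.49 otherwise. Trib3 had a log2 ratio of -0.49 and Chac1 of -0.98 with the floor at the 75th percentile, which lies above their signal in CCR4b RNAi cells, so these are bounds. Atf4 kept a log2 ratio between -1.01 and -0.75, whereas Atf5 and Cebpg changed sign with quantile normalization and loess. The list medians of the kinases, the other bZIP factors, the mTORC1 genes and the paralogues also lay on both sides of 0. Over all genes, 1765 were at least 1.5-fold lower and 1373 higher, against 3539 and 3278 with the floor at the 25th percentile and 1026 and 476 at the 75th, where 16289 and 7300 genes were measured. No alternative moved the median of all genes by more than 0.09 log2 units. No paired analysis was possible because each group has 1 array.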
